A study of Mus musculus with 6 samples.

Results

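The transforming growth factor β (TGF-β) pathway of tumor-infiltrating Tregs was described through 10 genes, chosen by their symbols: the ligand Tgfb1, the integrin subunit Itgb8, the receptors Tgfbr1 and Tgfbr2, the signal transducers Smad2, Smad3 and Smad4, the inhibitor Smad7, and the repressors Ski and Skil. They are 10 of the 15319 genes listed in the count table, and all 10 had counts in every library. RNA-Seq was compared between 3 libraries labelled WT and 3 labelled cKO. WT mice were Foxp3Yfp-Cre and cKO mice were Xrcc6flox/floxFoxp3Yfp-Cre, so that both groups carried a Cre recombinase and a YFP reporter expressed with Foxp3, and deletion of Xrcc6, which encodes the DNA repair protein Ku70, was directed to cells that express Foxp3. The mice were on a C57BL/6J background and 8 to 10 weeks old when LLC cells, a mouse Lewis lung carcinoma line, were injected into the tail vein, and the Tregs were sorted from the lung tumors after 21 days. The study's methods define mouse Tregs in the sort as CD4+CD25+YFP+, for spleen and lymph node, and the gate used for tumors is not given in the sources used here. How many mice stand behind a library is not given in the sources used here, so p-values measure only the spread between these libraries.

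TGF-β is secreted as a latent complex, and Tregs hold it on their surface until the integrin whose β chain is encoded by Itgb8 releases the active cytokine. The active ligand binds the type II receptor (Tgfbr2), which phosphorylates the type I receptor (Tgfbr1), and this kinase phosphorylates Smad2 and Smad3, which enter the nucleus with Smad4. Smad7 is induced by the pathway and shuts off the receptors, while Ski and Skil (also called SnoN) bind the SMAD complex on DNA and recruit corepressors. In CD4+ T cells the pathway is known for inducing Foxp3 and the epithelium-binding integrin chain encoded by Itgae.

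The libraries held 19032620 to 21707706 counts for WT and 20762042 to 23159815 for cKO. WT replicate 2 stood apart at a similar total: 11513 genes had at least 1 count in it, against 14442 to 14737 in the other libraries, and the fold changes and ratios of the members are given with and without it. Levels are given as CPM, in which counts are scaled to one library total after edgeR's TMM method has adjusted for composition. A count of 0 leaves room for up to 3 counts, or 0.133 to 0.156 CPM. That limit covers counting error only, and the members, at 408 to 8869 counts per library, were far above it. Values by library follow the replicate numbers 1, 2 and 3. Xrcc6 checked the labels: it had WT levels of 20.9, 63.1 and 23.8 CPM, beside cKO levels of 5.24, 3.51 and 4.18 CPM. The cKO level was -3.06 on the log2 scale relative to WT (standard error 0.48), at an edgeR p of 0.000306 before and 0.984 after adjustment. The adjusted p was 1.2e-05 with DESeq2 and all 6 libraries, and 0.0196 with edgeR without WT replicate 2. Its exons share 344 bases with Desi1 on the other strand, and whether counting used strand is not given in the sources used here. All 8 Treg and T cell markers with counts, among them Foxp3, Il2ra and Ctla4, were above a mean of 10 CPM, and their sum was 4537 to 6391 CPM in the WT group and 4911 to 5506 CPM in the cKO group. In bulk RNA, fewer cells of a type and less RNA per cell cannot be told apart.

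No difference of a member between cKO and WT Tregs exceeded the spread between replicates. Of the 10 members, 6 were lower and 4 higher in the cKO group, where 45.5% of all 15315 genes with counts were lower, and the WT and cKO libraries overlapped for every member, while they did not for 8.24% of all genes. By edgeR's quasi-likelihood test 0 members had an adjusted p under 0.05 (0.984 to 0.996), as had 0% of all genes, and 0 had an unadjusted p under 0.05, against 1.81% of all genes. DESeq2 also gave 0 members at an unadjusted p under 0.05, against 2.01% of all genes, and 2 of all genes passed its adjustment. Without WT replicate 2, again 0 members had an unadjusted p under 0.05 from edgeR, against 3.01% of all genes. The median log2 fold change over the members was -0.16, and -0.07 without WT replicate 2, beside 0.04 and -0.01 over all genes. The members that lay farthest below 0 were Smad4 and Ski, and for both the distance rested mostly on WT replicate 2.

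**Figure D1:**
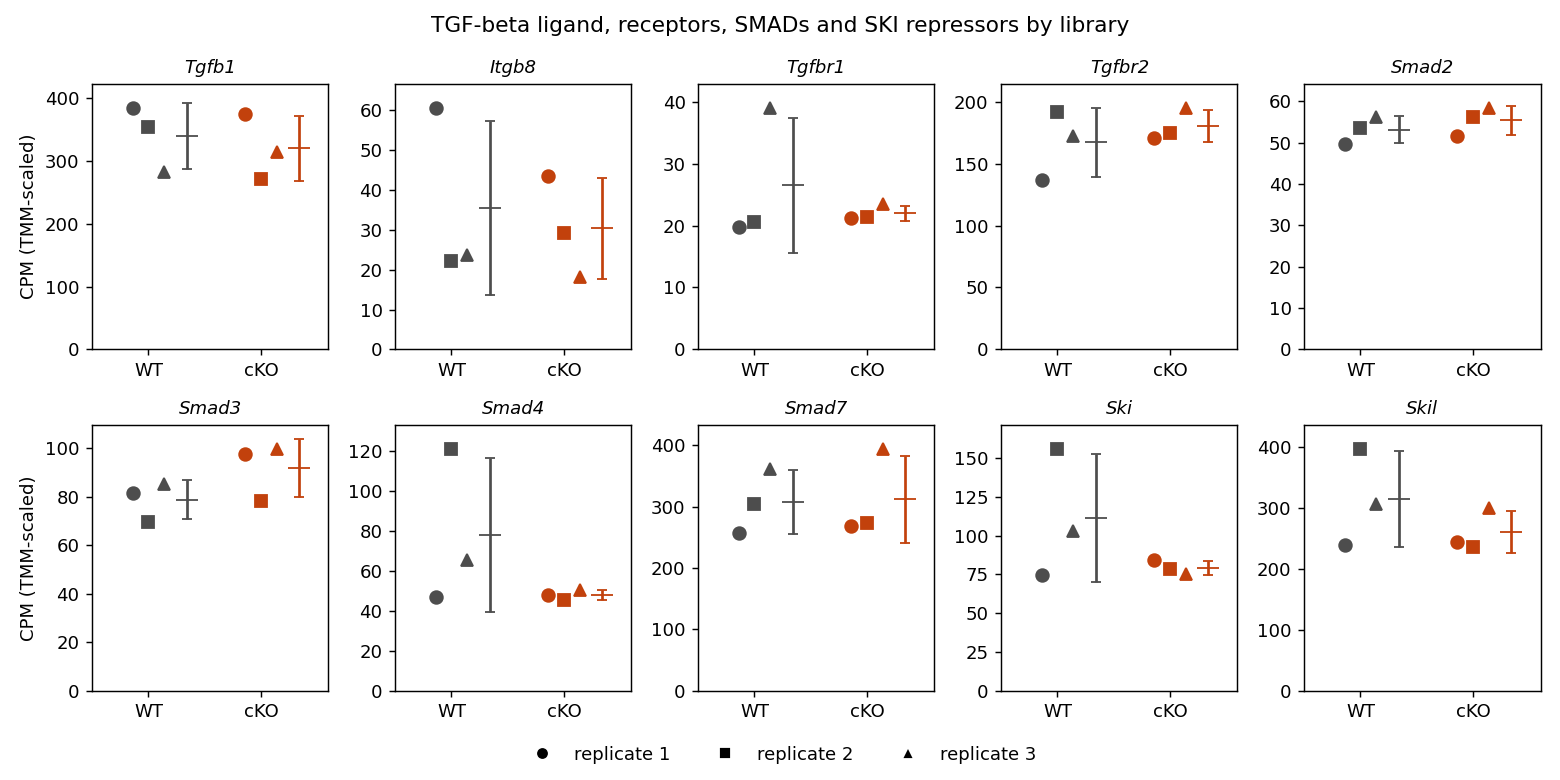
Each panel shows 1 gene, with its TMM-scaled CPM on the vertical axis from 0, the WT libraries in grey and the cKO libraries in orange, a symbol for each replicate number, and the group mean with its SD (n = 3) to the right of the points. In all 10 panels the groups overlap, and WT replicate 2 is the highest library for Smad4, Ski and Skil.

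Tgfb1, which encodes the ligand and spans 25687002 to 25705077 of chromosome 7 (GRCm38), gave 385, 354 and 282 CPM across the WT libraries, and 375, 272 and 314 CPM across the cKO libraries. The highest and the next library came 1 from each group, both numbered 1, and the groups covered almost the same range. The mean was 340 ± 52.5 CPM in WT and 320 ± 51.4 CPM in cKO Tregs (SD, n = 3 each). The log2 fold change was -0.09 with a 95% interval of -0.54 to 0.36, and -0.06 without WT replicate 2.

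Itgb8, on chromosome 12 from 119158022 to 119238802, encodes the β chain of the integrin that frees TGF-β from its latent complex, and it was the most variable member within the groups. It had WT levels of 60.6, 22.1 and 23.8 CPM, beside cKO levels of 43.6, 29.3 and 18.1 CPM. The replicate numbered 1 was the highest in both groups, at 2.74 times the lowest WT library and 2.40 times the lowest cKO library. The means were 35.5 ± 21.7 and 30.3 ± 12.8 CPM (SD, n = 3 each), and the log2 fold change was -0.23 with a 95% interval of -1.32 to 0.87. Its direction turned when WT replicate 1 was left out (0.40) and when cKO replicate 3 was (0.04), and it was -0.48 without WT replicate 2. The summed CPM of 7 macrophage markers moved the other way: it came to 176, 671 and 683 for the WT libraries, then 224, 523 and 1011 for the cKO libraries. The order of the libraries by Itgb8 was the reverse of their order by macrophage markers, except that WT replicates 2 and 3 exchanged places. This relation was not particular to Itgb8: Smad7 kept the order of the macrophage markers over all 6 libraries. Smad2 and Tgfbr2 were also lowest in WT replicate 1 and highest in cKO replicate 3, as the macrophage markers were. These comparisons were chosen after the values were seen. Lyz2, from 129 to 625 CPM, made up most of the sum in every library, so the order by the sum rested largely on this gene. The markers did not share 1 order: Csf1r, C1qa, C1qb and Adgre1 placed cKO replicate 2 above WT replicates 2 and 3. Lyz2, Cd68 and Mrc1 placed it below both. All 7 macrophage markers were above a mean of 10 CPM, and 6 of the 7 had a log2 fold change above 0, with 0 of the 7 at an unadjusted p under 0.05 from edgeR. The gate used for tumors is not given in the sources used here, and the part of macrophages in the levels of Itgb8, Smad7, Smad2 and Tgfbr2 was not tested. Relative to Tgfb1 in the same library, Itgb8 was at a log2 ratio of -3.41 ± 0.68 in WT and of -3.48 ± 0.55 in cKO Tregs (SD, n = 3 each), a difference of -0.07 within the spread (exact two-sided permutation test, p = 0.9, adjusted p = 0.9 over 5 ratios). It was -0.36 without WT replicate 2 and turned to 0.31 without WT replicate 1 and to 0.25 without cKO replicate 3.

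Tgfbr1, the type I receptor kinase (chromosome 4, 47353222 to 47414931), gave 19.8, 20.6 and 39.0 CPM across the WT libraries, and 21.2, 21.4 and 23.4 CPM across the cKO libraries. WT replicate 3 alone stood high, and the other 5 libraries lay between 19.8 and 23.4 CPM. The log2 fold change was -0.27 (95% interval -0.96 to 0.43), -0.42 without WT replicate 2, and turned to 0.13 without WT replicate 3. Tgfbr1 was the only member whose deposited values were not all whole numbers (4 of 6 libraries), and RSEM gives fractions where it divides reads among more than 1 gene.

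Tgfbr2, the type II receptor that binds the ligand (chromosome 9, 116084293 to 116175360), had WT levels of 137, 192 and 172 CPM, beside cKO levels of 171, 175 and 195 CPM. WT replicate 1 was the lowest of all libraries and the other 5 were close together. The means were 167 ± 27.8 and 180 ± 12.7 CPM (SD, n = 3 each). The log2 fold change was 0.11 (95% interval -0.28 to 0.50), 0.22 without WT replicate 2 and -0.01 without WT replicate 1. Within a library, where scaling has no part, the log2 ratio of Tgfbr1 to Tgfbr2 counts was -2.72 ± 0.54 in the WT group and -3.04 ± 0.02 in cKO Tregs (SD, n = 3 each). The WT libraries were at -2.79, -3.22 and -2.14 and the cKO libraries at -3.02, -3.03 and -3.06, so that WT replicate 2 alone lay below the cKO libraries. The difference was -0.32 (exact two-sided permutation test, p = 0.4, adjusted p = 0.625 over 5 ratios, where 3 against 3 cannot go below 0.1). Without WT replicate 2 it was -0.57 with no overlap (exact permutation p = 0.1, the smallest that 2 against 3 allow), and without WT replicate 3 it was -0.03.

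Smad2 and Smad3, the transducers that the receptor phosphorylates, had the narrowest spread of the members in the WT group. Smad2 gave 49.7, 53.4 and 56.2 CPM across the WT libraries, and 51.5, 56.2 and 58.4 CPM across the cKO libraries. Its SD was 6.12% of the mean in the WT group and 6.39% in the cKO group, and with a log2 fold change of 0.06 (95% interval -0.26 to 0.38) it was the member with the narrowest interval. Smad3 (chromosome 9, 63646767 to 63757994) had WT levels of 81.4, 69.6 and 85.1 CPM, beside cKO levels of 97.7, 78.1 and 99.6 CPM. The 2 highest libraries were cKO, but cKO replicate 2 lay below 2 of the WT libraries. Smad3 had the largest positive log2 fold change of the members with all 6 libraries, 0.22 (95% interval -0.14 to 0.59), or 0.14 without WT replicate 2, and no setting tried turned its sign. The log2 ratio of Smad2 to Smad3 was -0.56 ± 0.17 in the WT group and -0.72 ± 0.23 in cKO Tregs (SD, n = 3 each), a difference of -0.16 (-0.07 without WT replicate 2) within the spread (exact two-sided permutation test, p = 0.4, adjusted p = 0.625).

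Smad4, the partner shared by TGF-β and BMP signals, gave 47.0, 121 and 65.6 CPM across the WT libraries, and 47.7, 45.2 and 50.3 CPM across the cKO libraries. WT replicate 2 was at 2.16 times the mean of the other 2 WT libraries, and WT replicate 1 lay among the cKO libraries. The means were 78.0 ± 38.7 CPM in WT and 47.7 ± 2.57 CPM in cKO Tregs (SD, n = 3 each), or 56.3 CPM in the WT group without replicate 2. The log2 fold change of -0.71 (standard error 0.33, 95% interval -1.47 to 0.05) was the largest in size among the members and had an edgeR unadjusted p of 0.0635. Without WT replicate 2 it was -0.24 (95% interval -0.61 to 0.13, edgeR unadjusted p 0.176). Without WT replicate 1, the library nearest to the cKO group, it was -0.97 (edgeR unadjusted p 0.00911, adjusted p 0.677).

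Smad7, the feedback inhibitor of the receptors and the second member by level per length, had WT levels of 257, 305 and 362 CPM, beside cKO levels of 269, 273 and 394 CPM. The replicate numbered 3 was the highest in both groups, and the 2 groups covered nearly the same range. The means were 308 ± 52.2 and 312 ± 71.2 CPM (SD, n = 3 each), and the log2 fold change was 0.02 with a 95% interval of -0.48 to 0.52, or 0.01 without WT replicate 2. Set against Smad3 in the same library, Smad7 was at a log2 ratio of 1.96 ± 0.26 in the WT group and 1.75 ± 0.27 in cKO Tregs (SD, n = 3 each), a difference of -0.21 (-0.12 without WT replicate 2) within the spread (exact two-sided permutation test, p = 0.5, adjusted p = 0.625). Smad2, Smad4 and Smad7 are all on chromosome 18.

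Ski, the repressor that holds SMAD complexes inactive on DNA (chromosome 4, 155154075 to 155222592), gave 74.8, 156 and 103 CPM across the WT libraries, and 84.2, 78.4 and 75.1 CPM across the cKO libraries. WT replicate 2 was the highest, WT replicate 3 followed, and WT replicate 1 was the lowest of all 6. The means were 111 ± 41.5 CPM in WT and 79.2 ± 4.58 CPM in cKO Tregs (SD, n = 3 each). The log2 fold change was -0.49 (95% interval -1.09 to 0.11), at an edgeR unadjusted p of 0.0975, and without WT replicate 2 it was -0.16 (95% interval -0.52 to 0.19). Without WT replicate 1 it was -0.71 (edgeR unadjusted p 0.0117, adjusted p 0.677). Ski and Smad4 therefore shared 1 pattern: WT replicates 2, 3 and 1 in falling order, and cKO libraries within 1.12 times of each other.

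Skil, its homolog (chromosome 3, 31095058 to 31122577), which is also a target gene that SMADs induce, had WT levels of 239, 396 and 306 CPM, beside cKO levels of 244, 236 and 300 CPM. The WT libraries kept the order seen for Ski and Smad4, and cKO replicate 3 was near WT replicate 3. The means were 314 ± 78.5 and 260 ± 35.1 CPM (SD, n = 3 each), with a log2 fold change of -0.27 (95% interval -0.78 to 0.24) that was -0.07 without WT replicate 2. The log2 ratio of Ski to Skil was -1.53 ± 0.17 in the WT group and -1.71 ± 0.25 in cKO Tregs (SD, n = 3 each), and the difference of -0.18 (-0.08 without WT replicate 2) was within the spread (exact two-sided permutation test, p = 0.5, adjusted p = 0.625). WT replicate 2 was the highest WT library for 4 of the 10 members, Tgfbr2, Smad4, Ski and Skil, and so it was for 42.8% of the 8447 genes with a mean of at least 10 CPM.

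**Figure D2:**
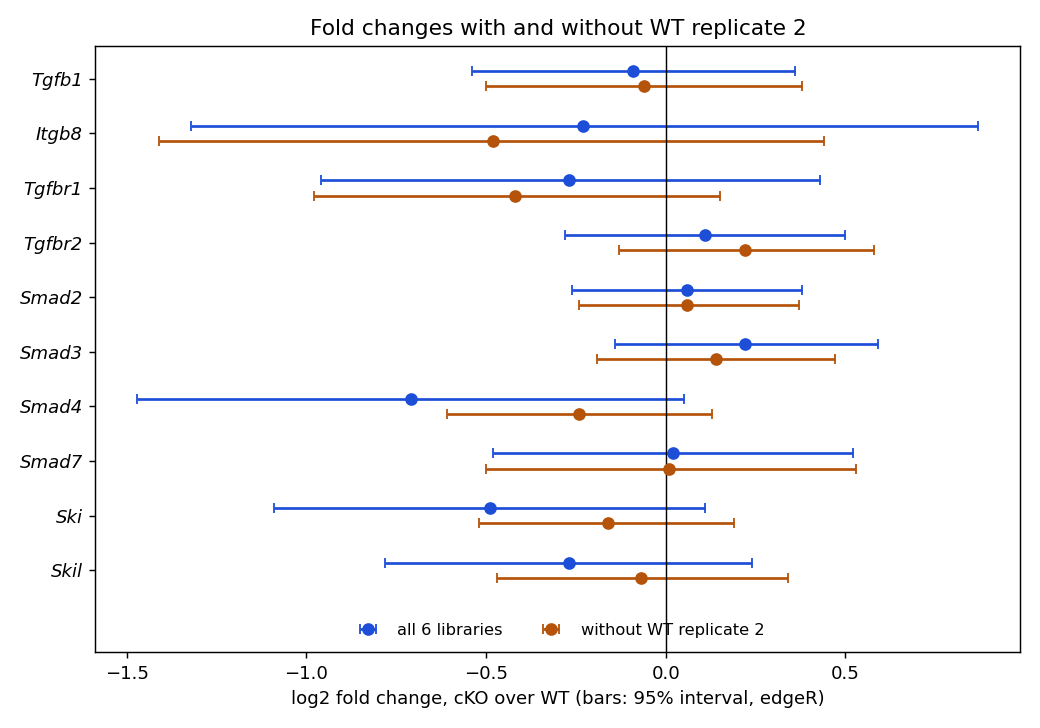
The horizontal axis gives log2 fold changes (cKO relative to WT), with a point and a bar for each member (the bar is the 95% interval from edgeR), in blue for all 6 libraries and in brown without WT replicate 2. Every bar crosses 0, and without WT replicate 2 the points of Smad4, Ski and Skil move toward 0 (from -0.71 to -0.24, from -0.49 to -0.16 and from -0.27 to -0.07) while those of Itgb8 and Tgfbr1 move away from it (from -0.23 to -0.48 and from -0.27 to -0.42).

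To compare the members with each other, CPM were divided by the length of each gene's exons in kb, merged over the transcripts of GENCODE release 21 for mouse. The ligand and the feedback inhibitor were the most abundant: the median over the 6 libraries was 66.2 CPM per kb for Tgfb1 and 64.0 for Smad7, with overlapping ranges. Skil followed at 28.0 CPM per kb and Tgfbr2 at 21.2, and the range of Skil, 24.3 to 40.8, overlapped neither that of Smad7 nor that of Tgfbr2. Tgfbr2 (16.8 to 23.8), Smad3 (12.6 to 18.0), Ski (13.4 to 28.1) and Smad4 (12.2 to 32.7) each overlapped the next in the order, so their ranges did not separate these 4. Compared within the same library, Tgfbr2 was nevertheless above Smad3 per length in every library. Smad2 at a median of 6.24, Tgfbr1 at 3.25 and Itgb8 at 2.40 CPM per kb were the lowest, with all libraries of Smad2 (5.66 to 6.66) below all libraries of Smad4. The type II receptor was thus more abundant per length than the type I receptor in every library (16.8 or more against at most 5.97 CPM per kb), as was Skil against Tgfbr2. Lengths of the transcripts expressed in these cells may differ from the merged exons, which could change the order between genes.

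**Figure D3:**
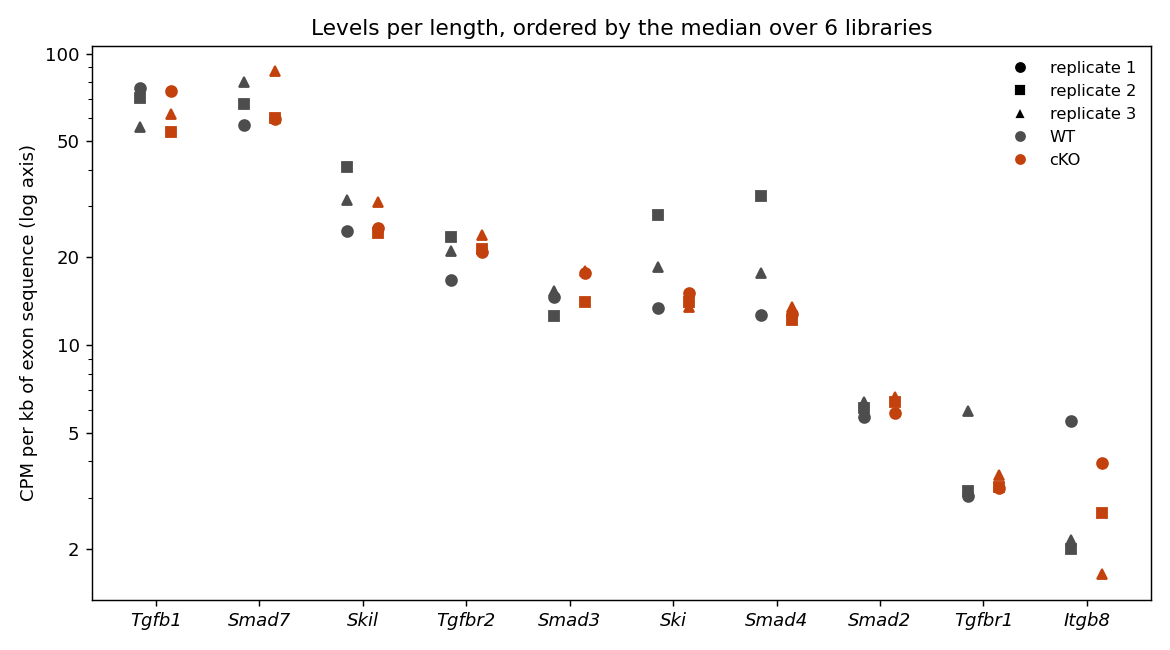
The vertical axis is CPM per kb of merged exon sequence on a log axis, and the members are ordered from left to right by their median over the 6 libraries, with WT in grey, cKO in orange and a symbol for each replicate number. Tgfb1 and Smad7 lie between 54.0 and 87.2, Itgb8 between 1.64 and 5.48, and the WT libraries of Smad4 and Ski spread more widely than their cKO libraries.

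The other genes of the pathway, a list of 80 with 77 in the counts, showed few differences. Of the 77 genes, 2 were lower and 0 higher at an unadjusted p under 0.05 from edgeR (2.60%, beside 1.81% of all genes), and 0 passed adjustment with edgeR or DESeq2. DESeq2 gave 3 of the 77 at an unadjusted p under 0.05 (Pmepa1, Furin and Gadd45b), beside 2.01% of all genes. Without WT replicate 2 edgeR also gave 3, Pmepa1 lower and Tgfb3 and Nedd4l higher, the last at log2 fold changes of 0.69 and 0.84 that were 0.21 and -0.11 with all libraries. Their median log2 fold change was 0.03, and 0.01 without WT replicate 2, with 40 genes above 0 and 37 below. The groups did not overlap for 5 of the 77 (6.49%, beside 8.24% of all genes). These were Pmepa1 and Furin and, named after their values were seen, Traf6, Cdkn2b and Gadd45b, with log2 fold changes of 0.35, -0.86 and -0.41.

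Pmepa1, a gene that SMADs induce and whose product keeps Smad2 and Smad3 from the receptor, gave 39.1, 38.6 and 43.0 CPM across the WT libraries, and 33.3, 31.5 and 25.9 CPM across the cKO libraries. The cKO libraries all lay below the WT libraries, and WT replicate 2 was the lowest of its group. The means were 40.3 ± 2.43 and 30.2 ± 3.85 CPM (SD, n = 3 each), a log2 fold change of -0.41 (95% interval -0.81 to -0.02). From edgeR the p was 0.0427 before and 0.984 after adjustment, while the exact two-sided permutation test gave 0.1, its smallest possible value. Without WT replicate 2 the log2 fold change was -0.44, with edgeR p-values of 0.015 before and 0.997 after adjustment. Leaving out each library in turn kept the log2 fold change between -0.49 and -0.31, and the unadjusted p from edgeR was above 0.05 without each of the other 5 libraries, up to 0.174 without cKO replicate 3.

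Furin, the protease that cleaves the TGF-β precursor, had WT levels of 170, 258 and 163 CPM, beside cKO levels of 156, 139 and 123 CPM. The groups did not overlap, but WT replicate 2 stood far above the other WT libraries. Furin differed by -0.50 on the log2 scale (standard error 0.21), with edgeR p-values of 0.0485 before and 0.984 after adjustment. Without WT replicate 2 it was -0.26 (edgeR unadjusted p 0.106), and it was above 0.05 too without each cKO library, up to 0.155 without cKO replicate 3.

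**Figure D4:**
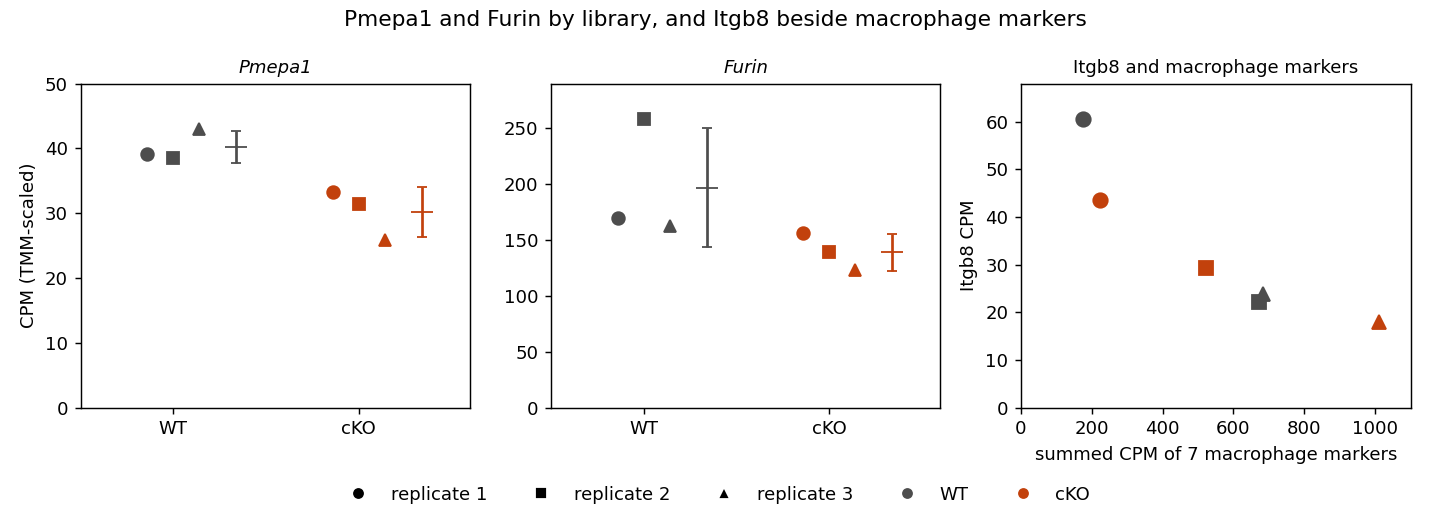
The first 2 panels show Pmepa1 and Furin by library as TMM-scaled CPM, with WT in grey, cKO in orange, a symbol for each replicate number and the group mean with its SD (n = 3) beside the points, and the last panel sets Itgb8 CPM against the summed CPM of 7 macrophage markers in the same 6 libraries. All cKO points lie below all WT points for Pmepa1 and Furin, and Itgb8 goes from 60.6 CPM at a marker sum of 176 to 18.1 CPM at a marker sum of 1011.

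Among the ligand and latency genes, 15 of 16 had counts, with 1 lower, Furin, and 0 higher at an unadjusted p under 0.05. Nrros, whose product anchors latent TGF-β, was at 1026 ± 202 CPM in WT and at 1107 ± 96.7 CPM in cKO Tregs (SD, n = 3 each), and Lrrc32, which encodes the Treg anchor GARP, at 448 ± 70.2 and 425 ± 61.2 CPM. Itgav, the α chain that pairs with the Itgb8 product, was at 213 ± 49.4 and 192 ± 49.3 CPM. The log2 fold changes of Nrros, Lrrc32 and Itgav were 0.11, -0.08 and -0.15, or 0.27, 0.04 and -0.27 when WT replicate 2 was left out. Among the receptor and co-receptor genes, 14 of 15 had counts and 0 reached an unadjusted p under 0.05. The most abundant of these were Fkbp1a, which encodes a protein that binds the type I receptor, Strap and the decoy receptor Bambi, with log2 fold changes of -0.06, 0.18 and 0.12, or -0.03, 0.12 and -0.08 without WT replicate 2.

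Of the other SMADs and SMAD cofactors, 15 of 16 had counts and 0 reached an unadjusted p under 0.05. Crebbp, which encodes an acetyltransferase that SMADs recruit, had WT levels of 138, 333 and 197 CPM, while the cKO libraries averaged 163 ± 12.2 CPM (SD, n = 3). It thus had the order of WT libraries seen for Smad4 and Ski, and its log2 fold change of -0.45 was -0.04 without WT replicate 2. Runx1 and Runx3, transcription factors that act with SMADs, had log2 fold changes of -0.11 and 0.10, or 0.05 and 0.01 without WT replicate 2. Among the genes of turnover and repression, all 17 had counts, with 1 lower, Pmepa1, and 0 higher. Tgif1, Ncor1 and Ldlrad4, the most abundant of them, encode repressors of SMAD output or signaling and had log2 fold changes of -0.14, -0.29 and -0.26, or 0.09, -0.04 and -0.18 when WT replicate 2 was left out. Among 16 genes listed here as TGF-β-induced, 0 reached an unadjusted p under 0.05 and 8 lay on each side of 0. Whether TGF-β induces each of them in these cells was not tested. The most abundant were Junb, Bhlhe40 and Id2, with log2 fold changes of -0.32, -0.22 and -0.33, and of 0.05, -0.25 and -0.40 without WT replicate 2.

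WT replicate 2 touched the rarer genes of the pathway in another way. It was at 0 counts for 14 of the 77 genes, against at most 1 in each other library, and 9 of the 14 had over 3 counts in every other library. Bmpr1a, a BMP receptor kinase, was at 0 counts in it and at 116 to 154 counts in the other libraries, and Acvr1, another type I receptor of the family, was at 0 against 24 to 47 counts. No member was at 0 in any library. Zeros in WT replicate 2 were not particular to the pathway. Of all 15315 genes with counts, only 11513 had at least 1 count in WT replicate 2, against 14442 to 14737 in the other libraries.

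Promoters of 6 members were read for the short element that Smad3 and Smad4 contact. The reason was that the receptors and the integrin are themselves genes of the pathway that reads it. RefSeq's table for GRCm38.p6 gave 7 promoters, 250 bases before to 50 after a start, for 6 of the 10 members: Tgfb1, Itgb8, Tgfbr1 (with 2 starts), Tgfbr2, Smad3 and Ski. The letters CAGAC, or GTCTG on the other strand, were found in 3 of the 7, and 49.6% of the 32851 promoters searched hold them. The full palindrome GTCTAGAC, which contains no CAGAC, was in none of the 7 and is in 0.213% of the promoters searched. Whether the promoters of Smad2, Smad4 and Smad7 hold it was not tested. Of these matches 2 are shown 5′ to 3′ on the strand of the gene, with the element in capitals. The starts are those of RefSeq's table. Both stretches lie inside the spans that GENCODE gives for these genes (Itgb8 119158022 to 119238802, Tgfbr1 47353222 to 47414931).
Itgb8, 196 bases before its start, chr12:119238456-119238484, minus strand: tgcccgcgagtgCAGACaggagcttctag
Tgfbr1, 203 bases before the downstream start of its 2, chr4:47386001-47386029, plus strand: tttcgaactcagCAGACagccccacggtc
A match of 5 letters is a description of the sequence and not a binding site. Neither Itgb8 nor Tgfbr1 differed between the groups by more than the spread between replicates.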

How the data were processed

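RNA-Seq of tumor-infiltrating Tregs (3 WT and 3 cKO libraries) was used. The deposited values are RSEM's expected counts, 1 row for each symbol and not normalized, which the authors made from paired-end reads aligned to GRCm38. The submitters' processing notes name Bowtie2 (version 2.3.4.3) and RSEM (version 1.3.1), and the annotation and strand setting are not given in the sources used here. Of the deposited values 21.6% were not whole (tolerance 1e-06), and all were rounded. Groups and replicate numbers came from sample titles. No 2 replicates agreed within sampling noise.

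Counts were tested in R (version 4.3.3) with edgeR (version 4.0.16): TMM scaling, then a quasi-likelihood comparison of both groups on the 15315 genes with at least 1 count, with Benjamini-Hochberg adjustment over all of them. Standard errors were derived from each gene's F statistic, and 95% intervals from the test's degrees of freedom. Ratios of 2 members were tested by exact two-sided permutation. Depth was 19032620 to 23159815 counts per library. Alternatives were DESeq2 (version 1.42.0), the tool of the paper's methods, with and without WT replicate 2, median-of-ratios scaling, library size only, filterByExpr (minimum count 10), a robust dispersion, limma's voomWithQualityWeights (version 3.58.1), a replicate block, 0.5 counts added before a ratio, and each library left out. The fits were tried on simulated counts in which 200 genes changed by 2 on the log2 scale, at an adjusted p under 0.05. With all 6 libraries edgeR recovered 134 of the 200 and called 12 unchanged genes, and DESeq2 recovered 167 and called 84. Without WT replicate 2 edgeR recovered 189 and called 29 unchanged genes, and DESeq2 recovered 190 and called 46.

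Positions came from GENCODE release 21 for mouse on GRCm38, which holds 14783 of the 15319 symbols. The members, the pathway list, the markers and the tests were chosen with earlier results of these data known. Named genes were the members, Xrcc6, the 3 most abundant pathway genes of each role, pathway genes at an unadjusted p under 0.05, and the 3 genes most like Tgfb1, Tgfbr1 and Tgfbr2. The sequence of 1 promoter match is not reported here.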

Additional observations from a re-analysis of the deposited data

How the results depend on the processing

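Of 140 values for the members over all alternatives, 129 kept the direction of the main value and 11 reversed. The threshold in this count was an adjusted p of 0.05, which no member passed in any alternative, so the count is one of directions only. Smad2 turned to -0.01 with library size only, and Smad7 to -0.05 with library size only and to -0.01 with voomWithQualityWeights. Leaving out each library in turn gave log2 fold changes of -0.22 to 0.02 for Tgfb1 (0.01 without WT replicate 1), -0.58 to 0.40 for Itgb8 (0.04 without cKO replicate 3), -0.44 to 0.13 for Tgfbr1, -0.01 to 0.22 for Tgfbr2 and -0.18 to 0.16 for Smad7 (-0.09 without WT replicate 1). The ratio of Itgb8 to Tgfb1 ranged from -0.36 to 0.31, with 0.25 without cKO replicate 3. Smad3, Smad4, Ski and Skil reversed in no alternative. The number of members at an unadjusted p under 0.05 from edgeR was 0 to 2 (2, Smad4 and Ski, without WT replicate 1), and the smallest adjusted p of any member, in any alternative, was 0.677. Over all genes, the adjusted calls numbered 2 with DESeq2, 3 with DESeq2 without WT replicate 2, and 0 to 1 with a library left out (1 without WT replicate 2). Unadjusted calls of higher genes, 144 with all libraries, were 95 with DESeq2, 39 with filterByExpr, 291 with voomWithQualityWeights and 45 (without cKO replicate 3) to 287 (without WT replicate 3) with a library left out. Those of lower genes, 133 with all libraries, were 212 with DESeq2, 351 with voomWithQualityWeights and 20 (without cKO replicate 3) to 601 (without WT replicate 1). Of the other pathway genes, 2 with all libraries, 1 was called with median-of-ratios scaling, 4 with voomWithQualityWeights, 4 with DESeq2 without WT replicate 2, and 0 (without cKO replicate 2 or 3) to 6 (without WT replicate 1), and their median log2 fold change ranged from -0.04 to 0.15. The causes of these changes were not tested.

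WT and cKO libraries share replicate numbers, but not every same-numbered pair deviated together: over 11568 genes the correlations of their deviations from the group means were 0.11, -0.09 and 0.21 for numbers 1, 2 and 3. WT replicate 3 correlated best with its own number, the highest of the 9 correlations, but WT replicate 1 did so with cKO replicate 2 (0.16) and WT replicate 2 with cKO replicate 3 (0.06), so the numbers were taken as names only. With the replicate block, 39 genes were higher and 46 lower at an unadjusted p under 0.05, 1 other pathway gene was called, their median was 0.12, and 0 members were called, with log2 fold changes from -0.59 for Smad4 to 0.22 for Smad3. With 3 libraries a group, the intervals in the report give the differences that these data do not exclude.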

Other observations

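Markers of other cell types than macrophages were summed in the same way. The sum of 6 dendritic cell markers was 8.46 to 48.9 CPM in the WT libraries and 20.7 to 35.5 CPM in the cKO libraries, and that of 5 B cell markers 14.7 to 23.7 and 12 to 48.3 CPM. Markers of CD8 T and NK cells summed to 5.26 to 21.6 and 20.3 to 22.5 CPM, and those of neutrophils to 2.58 to 11 and 8.17 to 14.3 CPM. Platelet markers summed to 73.3 to 132 and 106 to 138 CPM, and endothelial markers to 60.5 to 80.0 and 70.0 to 94.1 CPM. Epithelial and carcinoma markers summed to 11.4 to 34.0 and 20.6 to 29.6 CPM, and fibroblast markers to 0 to 2.97 and 1.44 to 3.51 CPM. Several sums came mostly from 1 gene. Over the 6 libraries Itgb3 gave 73.3 to 105 CPM of the platelet sum and Pecam1 60.3 to 92.9 CPM of the endothelial sum. Zbtb46 gave 7.61 to 35.0 CPM of the dendritic cell sum and Cd8b1 5.22 to 18.5 CPM of the CD8 T and NK cell sum. By an unadjusted p under 0.05 from edgeR, 2 of 6 neutrophil, 1 of 5 B cell and 1 of 5 endothelial markers with counts were called. The share over all genes was 1.81%. Of the 6 neutrophil markers, 0 reached a mean of 10 CPM. The part of such cells in the levels of the members was not tested.

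The genes whose log2 CPM followed a member most closely over the 6 libraries, among 8446 genes with a mean of at least 10 CPM, are given as a description, since all share the same libraries and scaling. For Tgfb1 they were Npnt, which encodes an extracellular matrix protein (r = 0.984), Aptx (r = 0.973) and Stk25 (r = 0.972). For Tgfbr1 they were Ankrd11 (r = 0.976), the tyrosine kinase gene Abl2 (r = 0.973) and Sdhaf1 (r = 0.970). For Tgfbr2 they were Rasa3, which encodes a GTPase-activating protein (r = 0.995), Dnajc7 (r = 0.993) and the phosphodiesterase gene Pde2a (r = 0.992). Among the members, Smad4 and Ski had the highest r over the 6 libraries (0.98), which was 0.88 over the 5 libraries without WT replicate 2. Tgfbr1 and Smad4 had an r of 0.09 over 6 and 0.98 over these 5 libraries, so the order of the pairs turned on WT replicate 2. Itgb8 and Tgfbr2 moved in opposite directions (r = -0.90, and -0.89 without WT replicate 2). So did Itgb8 and Smad2 (r = -0.89, and -0.98 without it) and Itgb8 and Smad7 (r = -0.84, and -0.89 without it).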
